A study of Mus musculus with 7 samples.

Results

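Rgs5, Cspg4, Kcnj8, Abcc9, Higd1b, Mcam, Des, Myh11 and Gja4 are genes widely used to mark pericytes and vascular smooth muscle cells, and they were taken by symbol from the table of counts. All 9 were among its 24421 symbols, and all 9 passed the filter on low counts that left 10535 genes for testing. The study measured messenger RNA in stromal cells of BALB/c mice with libraries that read the 3' ends of polyadenylated transcripts. The group labelled pCAF holds 3 libraries of cells from tumors of the mouse mammary carcinoma line 4T1-luc, which carries luciferase, after 100000 of its cells were put into the lower left mammary fat pad of females labelled as 8 weeks old. These cells lacked Ter119, CD45 and EpCAM and were selected for podoplanin (PDPN), although the marker field of pCAF replicate 3 reads PDPN negative. The group labelled NMF holds 4 libraries from the fat pads of untreated mice labelled as 12 weeks old, sorted on the same negative markers with no selection on PDPN. The tumor state, the PDPN gate, the enzymes used for digestion and the labelled age all differ between the groups, so their parts in any difference cannot be told apart. The labels call the replicates biological without naming the animals, so each p-value reflects library-to-library spread, which may be technical.

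Pericytes and vascular smooth muscle cells, together called mural cells, wrap the endothelial tube. Pericytes sit on capillaries inside the basement membrane, and smooth muscle cells form contractile layers around arteries and veins. Endothelial PDGF-B recruits both through the receptor PDGFRB, and NOTCH3 signaling maintains them. None of the usual mural markers is exclusive to these cells: desmin is also a filament of skeletal and cardiac muscle, CSPG4 (NG2) is carried by glial progenitors, and GJA4 and MCAM are also made by endothelium.

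Total counts ran from 1885039 to 2184389 in pCAF and from 2223198 to 4990070 in NMF, and the 9 genes held 432 to 726 counts per pCAF library and 857 to 2639 per NMF library. In pCAF replicate 1, 11090 genes were detected, fewer than the 13222 to 14353 of the remaining 6 libraries. The fibroblast markers Pdgfra, Col1a1, Col1a2, Col3a1 and Dcn were detected in all 7 libraries. Levels are given as CPM, counts relative to the scaled library size, where 1 count equals 0.554 to 0.563 CPM in pCAF and 0.187 to 0.422 CPM in NMF.

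Promoter sequences, from RefSeq on GRCm38.p6 (the assembly also called mm10), run from 250 bases before to 50 bases after the gene's start and are shown for genes that fell (Rgs5, Gja4), rose (Des) or did not pass the test (the channel subunits Kcnj8 and Abcc9). They lie at chr1:169655251-169655550 (plus strand), chr4:127313990-127314289 (minus strand), chr1:75360042-75360341 (plus strand), chr6:142571565-142571864 (minus strand) and chr6:142702225-142702524 (minus strand). Capitals mark CAGCTG, an E-box that reads the same on both strands.
Rgs5: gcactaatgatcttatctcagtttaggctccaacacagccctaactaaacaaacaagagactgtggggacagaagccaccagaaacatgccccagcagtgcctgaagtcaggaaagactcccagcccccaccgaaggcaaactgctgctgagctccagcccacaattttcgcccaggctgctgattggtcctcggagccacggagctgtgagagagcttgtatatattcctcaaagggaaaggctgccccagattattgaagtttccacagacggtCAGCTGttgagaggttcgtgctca
Gja4: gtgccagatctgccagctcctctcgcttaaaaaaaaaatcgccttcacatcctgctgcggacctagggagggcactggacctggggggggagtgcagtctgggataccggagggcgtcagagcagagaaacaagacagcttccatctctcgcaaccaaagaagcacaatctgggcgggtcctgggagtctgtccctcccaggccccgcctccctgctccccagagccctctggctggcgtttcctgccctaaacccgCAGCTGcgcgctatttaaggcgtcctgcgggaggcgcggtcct
Des: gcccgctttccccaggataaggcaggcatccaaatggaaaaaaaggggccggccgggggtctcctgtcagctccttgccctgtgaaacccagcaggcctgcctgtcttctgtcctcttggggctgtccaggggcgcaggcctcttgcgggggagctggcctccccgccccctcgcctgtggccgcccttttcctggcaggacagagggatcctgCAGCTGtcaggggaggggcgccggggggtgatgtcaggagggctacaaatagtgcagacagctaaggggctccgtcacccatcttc
Kcnj8: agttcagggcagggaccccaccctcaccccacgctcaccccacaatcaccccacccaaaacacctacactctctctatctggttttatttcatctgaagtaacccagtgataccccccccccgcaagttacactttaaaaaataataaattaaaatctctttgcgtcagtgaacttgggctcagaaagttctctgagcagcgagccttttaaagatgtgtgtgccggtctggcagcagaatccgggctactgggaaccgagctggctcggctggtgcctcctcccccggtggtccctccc
Abcc9: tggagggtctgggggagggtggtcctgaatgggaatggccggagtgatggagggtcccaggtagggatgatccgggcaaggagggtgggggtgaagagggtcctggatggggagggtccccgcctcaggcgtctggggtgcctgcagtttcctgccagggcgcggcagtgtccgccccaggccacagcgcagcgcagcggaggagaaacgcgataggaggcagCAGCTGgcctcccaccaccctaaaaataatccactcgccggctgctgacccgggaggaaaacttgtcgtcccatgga

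Higd1b and Myh11 had no promoter entry and were not searched for any site. Of the 7 members with a promoter entry, 4 held CAGCTG, against 16.3% of 32817 promoters. Its first base was at position 27 in Rgs5 and 8 in Gja4, counting from 1 at the start site, and at -36 in Des and -27 in Abcc9, counting from -1 upstream of it. Genes with the hexamer thus included some that fell, one that rose and one that did not pass. TGTGGT and TGCGGT, forms of the site bound by RUNX proteins searched on both strands, were in none of the 7, against 16.8% and 6.45% of all promoters, and the CArG box of serum response factor was in none, against 1.63%. The windows of Cspg4 and Mcam were searched but are not printed. Neither held CAGCTG, and Mcam was among the genes that fell. The matches describe the searched windows and were not tested as binding sites.

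The 9 markers did not move as a block: Rgs5, Higd1b, Gja4 and Mcam were lower in pCAF, Des was higher, and Cspg4, Kcnj8, Abcc9 and Myh11 did not pass the test. By edgeR's quasi-likelihood test at an adjusted p under 0.05, 4 of 9 were lower, where 14.2% of all tested genes were, and 1 of 9 was higher, where 14.3% of all tested genes were; in either direction 5 of 9 passed, against 28.4% of all tested genes. The median log2 fold change of the 9 was -1.92, also with Higd1b at its bound, and that of all tested genes was -0.02. The median of the 9 is the value of Myh11, which did not pass and which NMF replicate 4 set. Without NMF replicate 4 the middle value was that of Abcc9, at -0.89. In bulk libraries fewer cells of a type and less RNA per cell cannot be told apart. The summed level of the 9 overlapped between the groups, at 243 to 403 CPM in pCAF and 302 to 493 CPM in NMF.

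**Figure D1:**
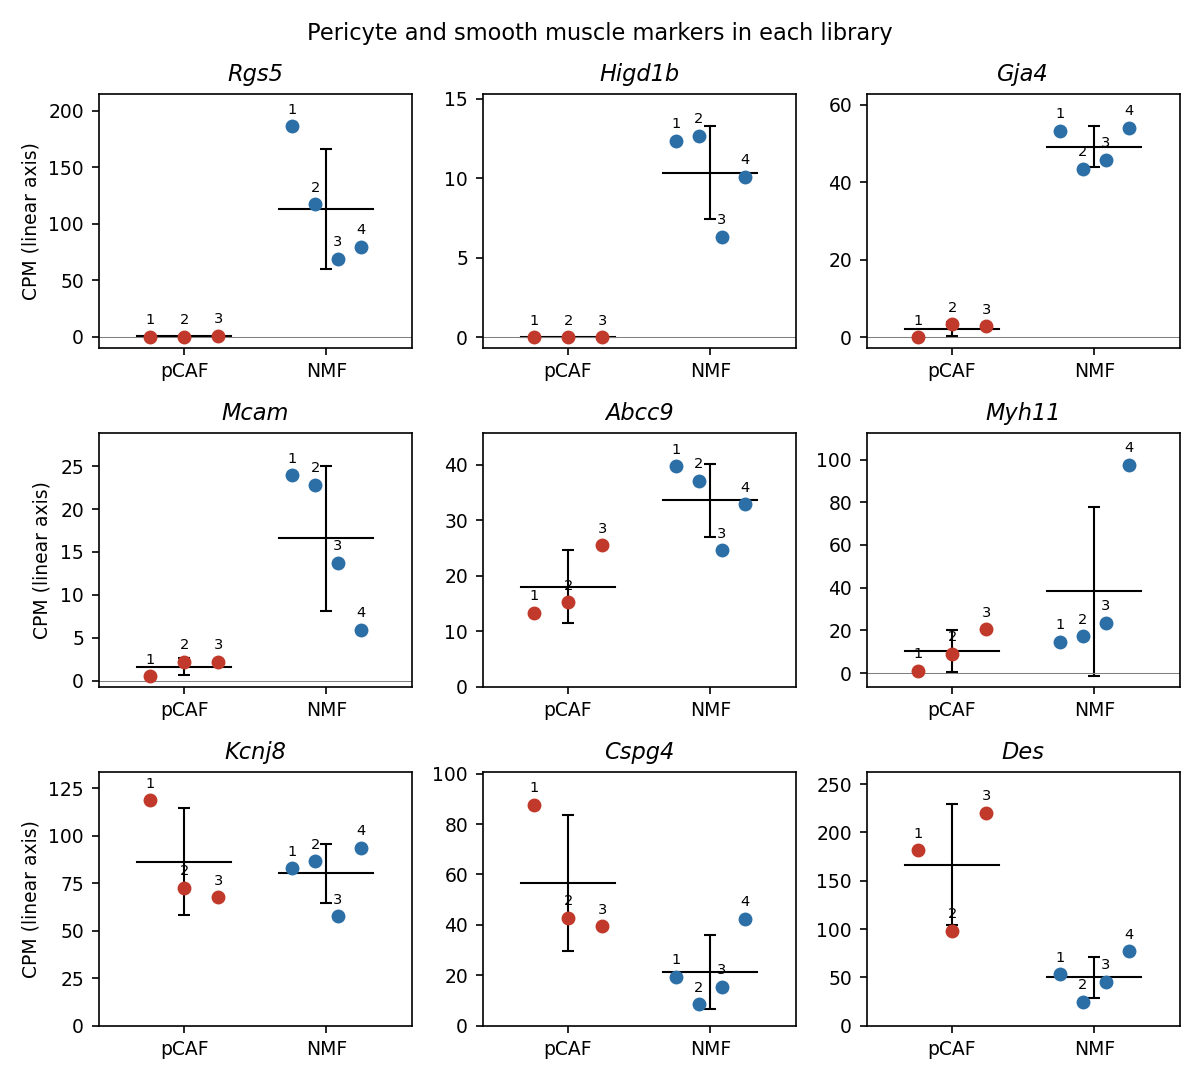
CPM of each marker (vertical axes, linear, each with its own range) in pCAF and NMF; points are libraries numbered by replicate, long lines the group means and bars the SD. Rgs5, Higd1b, Gja4 and Mcam lie near 0 in pCAF, Des lies higher in every pCAF library than in any NMF library, and Myh11 is set by NMF replicate 4.

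Rgs5, a regulator of G protein signaling and a common pericyte marker, was close to absent from pCAF. Rgs5 had 0, 0 and 2 counts in pCAF replicates 1 to 3, against 482, 278, 196 and 426 counts in NMF replicates 1 to 4. In CPM this was 0, 0 and 1.11 in pCAF and 186, 117, 68.995 and 79.6 in NMF, so the groups lay far apart and NMF replicate 1 was the highest. Over the pooled counts NMF held 283 times the pCAF level of Rgs5 (95% counting interval 78.1 to 2337; edgeR, adjusted p = 7.93e-05). That ratio was 188 without pCAF replicate 1 and 189.5 without pCAF replicate 2, and without pCAF replicate 3, which held both counts, it was at least 125. Rgs5 lies on mm10 chromosome 1, 169655501 to 169695813, plus strand.

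Higd1b, a member of the hypoxia-inducible domain family that marks pericytes in mouse tissues, had no count in any pCAF library, and 32, 30, 18 and 54 counts in NMF replicates 1 to 4. Its NMF level was 10.4 ± 2.92 CPM (SD, n = 4). With the pCAF group set to a limit of 3 counts in all, 0.557 CPM, Higd1b was at least 18.3-fold lower in pCAF (edgeR, adjusted p = 0.00154), and the bound was 12.2 without pCAF replicate 1 or pCAF replicate 3. Its relative Higd1a, which is broadly expressed, went the other way at 24.9 ± 7.80 CPM in pCAF and 9.63 ± 1.59 CPM in NMF (edgeR, adjusted p = 0.0203), although a near-identical copy of its 3' end is annotated and its share of reads is uncertain.

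Gja4, the connexin 37 gap junction subunit of arterial endothelium and mural cells, had 0, 6 and 5 counts in pCAF and 138, 103, 130 and 289 counts in NMF. The levels were 0, 3.38 and 2.77 CPM in pCAF and 53.3, 43.5, 45.8 and 53.97 CPM in NMF, the narrowest relative spread of the 9 within NMF. Gja4 was 23.5-fold lower in pCAF (log2 fold change -4.56, SE 0.61, edgeR adjusted p = 5.11e-04). When single libraries were left out its log2 fold change ran from -5.10 to -3.99, the smallest fall being without pCAF replicate 1. Gja1 (connexin 43), the connexin of fibroblasts and muscle, was higher in pCAF at 257 ± 44.6 CPM against 70.4 ± 8.35 CPM in NMF (edgeR, adjusted p = 4.11e-04), with a near-identical stretch of its 3' end in another annotated gene. Gja5, the arterial connexin 40, had no pCAF count and 0 to 5 counts per NMF library and was not tested.

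Mcam (CD146), an adhesion molecule of mural and endothelial cells, had 1, 4 and 4 counts in pCAF, against 62, 54, 39 and 32 counts in NMF. The levels were 0.555 to 2.25 CPM in pCAF and 5.98 to 23.9 CPM in NMF, with NMF replicate 4 the lowest of its group and no overlap between groups. Mcam was 9.60-fold lower in pCAF (log2 fold change -3.26, SE 0.71, edgeR adjusted p = 0.00709), a call that limma-voom did not make (adjusted p = 0.0723). The 4 genes that fell were also those of the 9 whose pCAF libraries all lay below the NMF libraries, where 21.4% of all tested genes did so, and 40.4% had groups apart in either direction.

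Des encodes desmin, the intermediate filament of muscle and of many pericytes, and was the member that rose. Counts of Des reached 327, 174 and 397 in pCAF and 138, 59, 129 and 411 in NMF, or 181, 98.0 and 220.05 CPM in pCAF and 53.3, 24.9, 45.4 and 76.8 CPM in NMF. The lowest pCAF value exceeded the highest NMF value, which held for 19.0% of all tested genes in that direction, and pCAF replicate 2 came closest to NMF replicate 4. Des was 3.30-fold higher in pCAF (log2 fold change 1.72, SE 0.40, edgeR adjusted p = 0.00933). Its last 1000 bases (mm10 chromosome 1, gene from 75360329 to 75368579) overlap Gm15179 on the other strand, which had 1 count over all 7 libraries. Of the 10 tested skeletal muscle markers none was higher in pCAF: their summed level was 28.8 to 70.4 CPM in pCAF and 81.1 to 302 CPM in NMF, and Ckm, the muscle creatine kinase, had 0, 1 and 0 counts in pCAF and 41, 14, 48 and 364 counts in NMF. Of 14 listed skeletal muscle genes, 5 to 12 had a count in a pCAF library and 12 or 13 in an NMF library. Within NMF, Des and the summed skeletal muscle level were both highest in replicate 4. Which cells supplied Des was not tested.

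Vim, which encodes vimentin, the general mesenchymal filament protein, also rose and stood at 7708 ± 2462 CPM in pCAF and 4156 ± 525 CPM in NMF (log2 fold change 0.89, edgeR adjusted p = 0.0393).

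Cspg4, the NG2 proteoglycan, had 158, 76 and 71 counts in pCAF and 50, 20, 44 and 227 counts in NMF. In CPM it stood at 87.6, 42.8 and 39.4 in pCAF and 19.3, 8.44, 15.5 and 42.4 in NMF, so that NMF replicate 4 alone overlapped the pCAF range. The log2 fold change of 1.38 (95% interval 0.24 to 2.51) did not pass (edgeR, adjusted p = 0.0693). Without NMF replicate 4 Cspg4 was higher in pCAF, with a log2 fold change of 2.00 (edgeR, adjusted p = 0.0139), and it also passed with DESeq2's test (adjusted p = 0.0397). Schwann and glial markers summed to 22.2 to 49.9 CPM in pCAF and 331 to 1221 CPM in NMF, highest in NMF replicate 4. Which cells supplied Cspg4 was not tested.

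Kcnj8 and Abcc9 encode the pore (Kir6.1) and the sulfonylurea receptor (SUR2) of the ATP-sensitive potassium channel of vascular mural cells. They are neighbours on mm10 chromosome 6 on the same strand, Kcnj8 from 142564837 to 142571614 and Abcc9 from 142587862 to 142702315, with 16247 bp between them. Kcnj8 had 214, 129 and 122 counts in pCAF and 215, 205, 164 and 502 counts in NMF, or 119, 72.7 and 67.6 CPM in pCAF and 83.04, 86.6, 57.7 and 93.8 CPM in NMF. These ranges overlapped, with pCAF replicate 1 above every NMF library and NMF replicate 3 below every pCAF library, and the log2 fold change was 0.10 (95% interval -0.55 to 0.75, edgeR adjusted p = 0.826). The interval leaves out a fall of the size measured for Rgs5, Gja4 or Mcam.

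Abcc9 had 24, 27 and 46 counts in pCAF and 103, 88, 70 and 176 counts in NMF. Its levels were 13.3, 15.2 and 25.5 CPM in pCAF and 39.8, 37.2, 24.6 and 32.9 CPM in NMF, so that pCAF replicate 3 alone reached the NMF range. Abcc9 did not pass at a log2 fold change of -0.90 (95% interval -1.68 to -0.12, edgeR adjusted p = 0.0805), and it did with DESeq2's test (adjusted p = 0.0455). Within a library, which needs no scaling, there were 8.92, 4.78 and 2.65 Kcnj8 counts per Abcc9 count in pCAF and 2.09 to 2.85 in NMF, so pCAF replicate 3 lay within the NMF range. The subunits of the pancreatic form of the channel were scarce: Kcnj11 had no count in any library, and Abcc8 had none in pCAF and 1 to 12 counts per NMF library.

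Myh11, the smooth muscle myosin heavy chain and the marker most tied to differentiated smooth muscle, had 2, 16 and 37 counts in pCAF and 38, 41, 67 and 522 counts in NMF. The levels were 1.11, 9.01 and 20.5 CPM in pCAF and 14.7, 17.3, 23.6 and 97.5 CPM in NMF. NMF replicate 4 stood far above the rest of its group, and pCAF replicate 3 lay inside the NMF range. The log2 fold change was -1.92 (95% interval -3.87 to 0.03, edgeR adjusted p = 0.130), and it was -0.85 without NMF replicate 4 (adjusted p = 0.429). The non-muscle myosins Myh9 (541 ± 244 CPM in pCAF and 280.4 ± 104 CPM in NMF, edgeR adjusted p = 0.108) and Myh10 (25.6 ± 3.73 CPM in pCAF and 31.8 ± 6.22 CPM in NMF, adjusted p = 0.477) did not pass either.

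**Figure D2:**
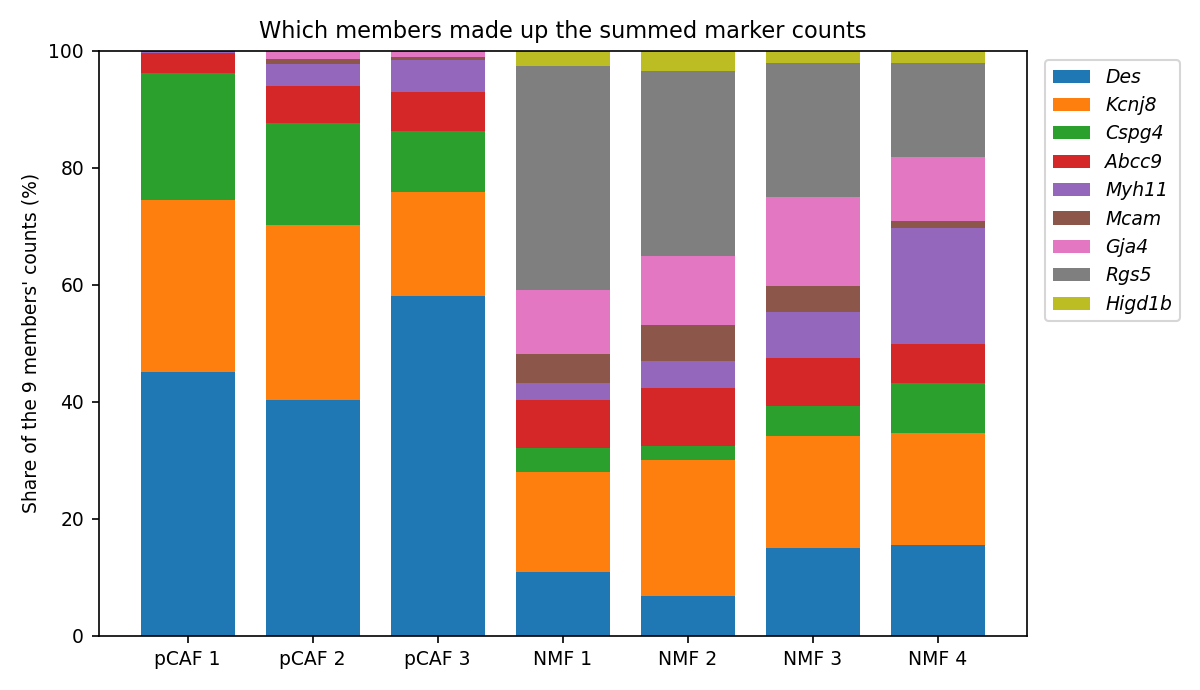
Share of the summed counts of the 9 genes (vertical axis, percent) taken by each gene in each library, pCAF at the left and NMF at the right. Des, Kcnj8 and Cspg4 fill 86.3% to 96.3% of the pCAF bars and 32.03% to 43.2% of the NMF bars.

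The make-up of the summed signal therefore differed while its size overlapped. Cspg4, Des and Kcnj8, grouped after their values were seen, made up 96.3% (Wilson 95% interval 94.6 to 97.4), 87.7% (84.3 to 90.5) and 86.3% (83.5 to 88.6) of the members' counts in pCAF replicates 1 to 3. In NMF replicates 1 to 4 they made up 32.03% (29.5 to 34.7), 32.3% (29.3 to 35.5), 39.3% (36.1 to 42.6) and 43.2% (41.3 to 45.1). Rgs5, Higd1b and Gja4, likewise grouped afterwards, held 0 of 726 counts in pCAF replicate 1 (Wilson upper bound 0.526%), 1.39% in pCAF replicate 2 (0.638 to 2.997) and 1.02% in pCAF replicate 3 (0.497 to 2.10), and at least 29.1% in an NMF library (27.4 to 30.9, NMF replicate 4). These intervals cover counting error only, and a lower share of some members raises that of the others.

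Other genes linked to pericytes also moved in both directions. Of 25 listed genes 20 were tested; 8 were lower in pCAF, 4 were higher and 8 did not pass, with a median log2 fold change of -1.04. Notch3, the receptor that maintains mural cells, fell to 26.2 ± 6.27 CPM in pCAF, against 131 ± 15.1 CPM in NMF (5.01-fold, edgeR adjusted p = 2.65e-04). Steap4, a metalloreductase, was lower at 73.4 ± 34.4 CPM in pCAF and 175 ± 40.6 CPM in NMF (edgeR, adjusted p = 0.0295). Pdgfrb, the receptor for PDGF-B shared by mural cells and fibroblasts, was at 304 ± 124 CPM in pCAF and 145 ± 44.5 CPM in NMF and missed the threshold (edgeR, adjusted p = 0.05002). Pdgfrb passed in 6 of 17 alternatives, such as without pCAF replicate 1 (adjusted p = 0.00510), and not in the other 11, such as the replicate block (adjusted p = 0.183). Cd248 (endosialin) was at 784 ± 429 CPM in pCAF and 1438 ± 718 CPM in NMF (edgeR, adjusted p = 0.187).

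Anpep (aminopeptidase N) differed among the pCAF libraries, with 316, 62 and 43 counts in pCAF and 214 to 391 in NMF. It did not pass (log2 fold change -0.24, edgeR adjusted p = 0.799), was lower in pCAF without pCAF replicate 1 (-1.65, adjusted p = 0.00163), and had a positive log2 fold change without pCAF replicate 2 (0.11) or replicate 3 (0.19). Besides Notch3 and Steap4, the genes that fell were Ednrb, P2ry14, Tbx2, Art3, Gucy1b3 and Ebf1, named after their values were seen. Ednrb had the largest fitted fall of these, with 0, 1 and 0 counts in pCAF and 116, 157, 104 and 381 counts in NMF. The 4 genes that rose, likewise named after their values were seen, were Foxs1, Heyl, Ndufa4l2 and Trpc6. Foxs1, a forkhead factor, was at 51.3 ± 7.72 CPM in pCAF and 6.67 ± 2.68 CPM in NMF (edgeR, adjusted p = 5.12e-04), while near-identical stretches make the share of reads of Trpc6 uncertain, as an overlapping gene on the other strand does for Ndufa4l2. The count of genes that fell was 5 without pCAF replicate 3, NMF replicate 1 or NMF replicate 2.

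**Figure D3:**
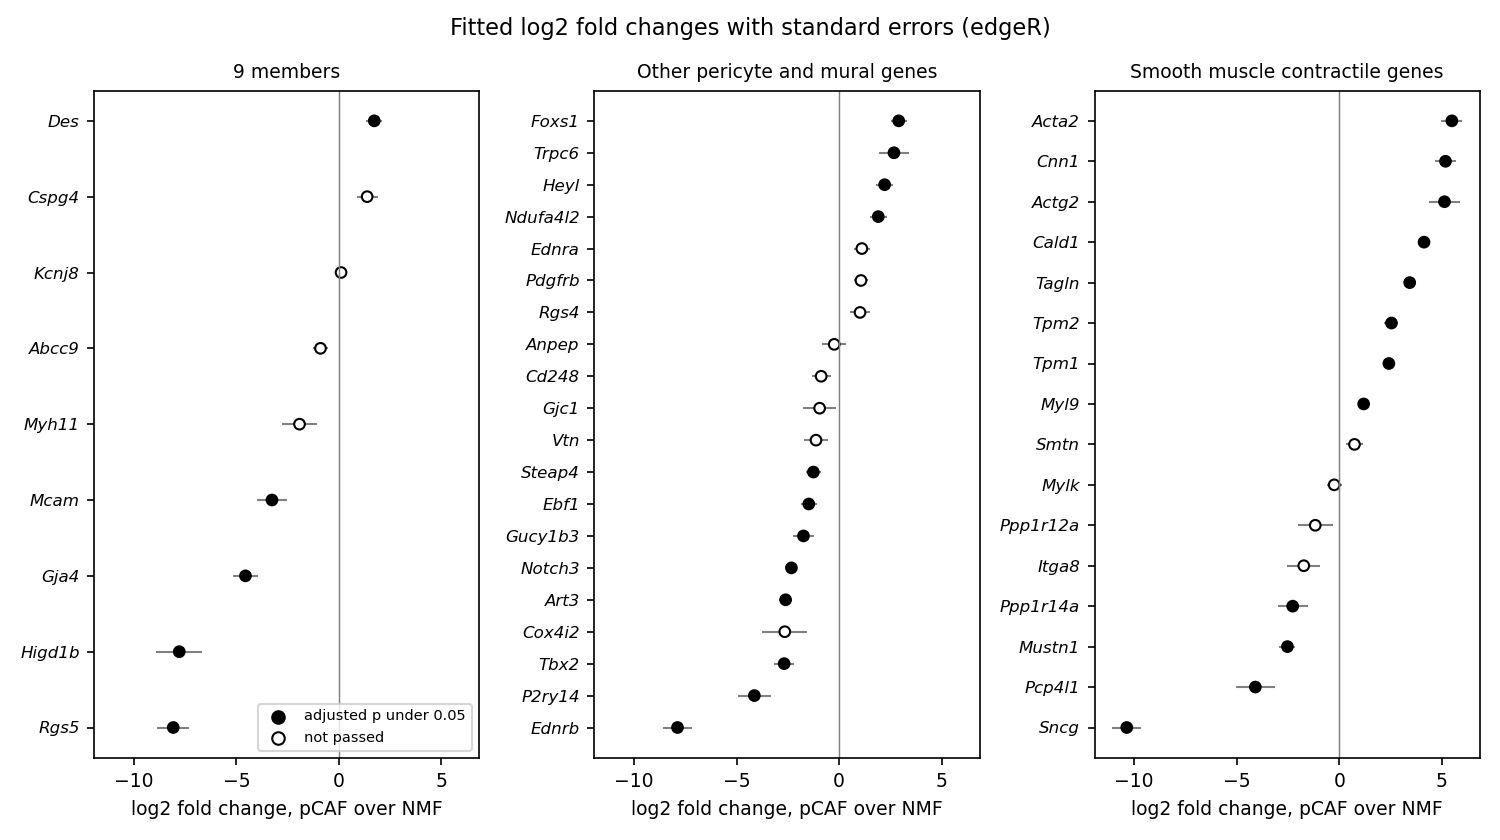
Fitted log2 fold changes, pCAF over NMF (horizontal axis), with standard errors for the 9 members, the other tested pericyte and mural genes, and the tested smooth muscle contractile genes. Filled points passed an adjusted p under 0.05; fitted values of genes at or near 0 in pCAF, such as Rgs5, Higd1b, Ednrb and Sncg, depend on the prior count.

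Genes of the smooth muscle contractile list moved in both directions. Of 24 listed genes 16 were tested; 8 were higher in pCAF, 4 were lower and 4 did not pass, with a median log2 fold change of 0.97. Tagln (transgelin), Cald1 (caldesmon), Tpm1 (tropomyosin) and Myl9 (a myosin light chain) all rose, and the most abundant of them, Tpm1, was at 1074 ± 187 CPM in pCAF and 201 ± 16.2 CPM in NMF (edgeR, adjusted p = 1.11e-04). Acta2, the smooth muscle actin, had 75, 134 and 179 counts in pCAF and 6, 5, 5 and 3 counts in NMF. NMF replicate 4, the library with the most Myh11, thus had the fewest Acta2 counts, although Acta2 was scarce in every NMF library. Tagln was at 1010 ± 136 CPM in pCAF and 93.4 ± 17.2 CPM in NMF (edgeR, adjusted p = 3.49e-05), with genes on the other strand overlapping its 3' end. The genes of the list that fell were Mustn1, Pcp4l1, Ppp1r14a (CPI-17, an inhibitor of myosin phosphatase) and Sncg (gamma-synuclein). None of them encodes an actin, tropomyosin, caldesmon, transgelin or myosin light chain. Myocd, the coactivator that drives the smooth muscle program, held 0 or 1 count per library and was not tested.

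Of 18 tested genes of mural cell recruitment, which share Pdgfrb and Notch3 with the list above, 8 were lower, 7 were higher and 3 did not pass (median log2 fold change 0.72). Tgfbr2 (799 ± 47.2 CPM in pCAF and 602 ± 119 CPM in NMF, edgeR adjusted p = 0.257) and Tgfbr1 (174 ± 83.0 CPM in pCAF and 85.6 ± 29.4 CPM in NMF, adjusted p = 0.0930), the TGF-beta receptors, did not pass. Eng (endoglin), an endothelial and stromal TGF-beta coreceptor whose 3' end overlaps another gene, fell to 128 ± 93.03 CPM in pCAF, against 428 ± 56.3 CPM in NMF (edgeR, adjusted p = 0.0151). Pdgfb, the endothelial ligand that recruits pericytes, had 0, 3 and 0 counts in pCAF and 165, 169, 80 and 313 counts in NMF. Angpt1, the TIE2 ligand that mural cells and fibroblasts supply, had 53, 35 and 71 counts in pCAF and 3, 4, 6 and 20 counts in NMF. Of 19 tested relatives of the members among channels, connexins, RGS proteins, filaments and myosins, 5 were lower, 5 were higher and 9 did not pass (median log2 fold change -0.05).

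**Figure D4:**
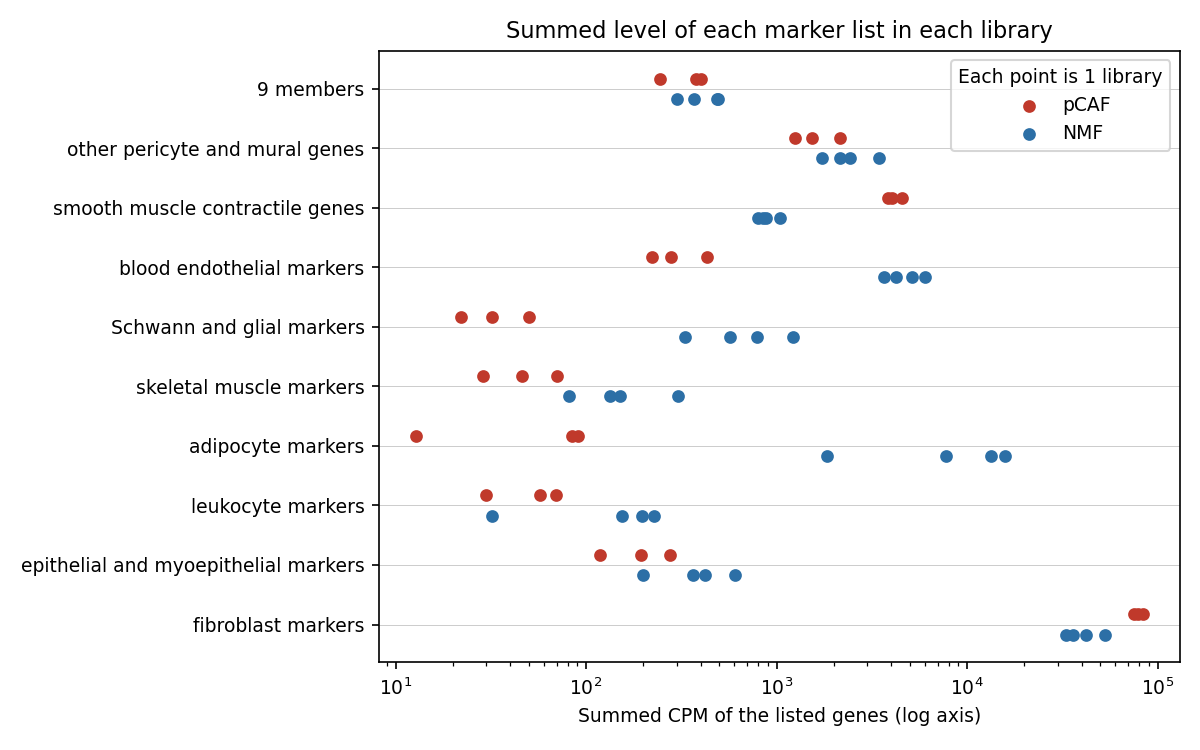
Summed CPM of the genes in each list (horizontal axis, log scale) in each library, pCAF above NMF in each row. The 9 members overlap between groups, contractile genes and fibroblast markers lie higher in pCAF, and blood endothelial, Schwann and adipocyte markers lie lower.

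Lists of markers for other cell types did not all go the same way. Nearly all tested blood endothelial, adipocyte and Schwann markers were lower in pCAF, unlike those of the remaining lists. All 21 tested blood endothelial markers were lower in pCAF (median log2 fold change -6.08), with a summed level of 223 to 432 CPM in pCAF and 3671 to 5999 CPM in NMF. Of 22 listed, 12 to 18 had a count in a pCAF library and 21 or 22 in an NMF library. Pecam1 and Cdh5, defining endothelial genes, had 0, 4 and 4 counts each in pCAF, while in NMF Pecam1 had 785 to 1615 and Cdh5 455 to 702. Arterial endothelial markers were lower in 4 and higher in 1 of 8 tested cases (median log2 fold change -1.04). The part of endothelial cells in the levels of Gja4 and Mcam was not tested.

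All 6 tested adipocyte markers and 7 of 8 Schwann and glial markers were also lower in pCAF (median log2 fold changes -5.59 and -4.75, the adipocyte median being -5.08 with Cidec, at 0 in pCAF, at its bound). None was higher in the skeletal muscle list (4 lower of 10 tested), the leukocyte list (4 of 8) or the epithelial and myoepithelial list (3 of 9), where the medians were -1.92, -2.09 and -1.73. Of 12 fibroblast markers 5 were higher, among them Pdpn, on which pCAF had been sorted, 2 were lower and 5 did not pass, and Pdgfra, their surface receptor, was at 208 ± 27.2 CPM in pCAF and 201 ± 58.8 CPM in NMF (edgeR, adjusted p = 0.916). Of 4 tested lymphatic markers 2 were higher, Pdpn and Mmrn1, while Flt4 was lower and Prox1, the defining lymphatic factor, had 2 counts in pCAF and 1 in NMF.

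Within NMF, replicate 4 differed in several members. Its 97.5 CPM of Myh11, 76.8 of Des, 42.4 of Cspg4 and 93.8 of Kcnj8 were the highest of the group, while its 5.98 CPM of Mcam was the lowest and its 79.6 CPM of Rgs5 was between those of replicates 2 and 3. Skeletal muscle and Schwann markers were highest in the same library, at 302 and 1221 CPM against 81.1 to 151 and 331 to 794 CPM in the other NMF libraries. Adipocyte, leukocyte and epithelial markers were lowest there, at 1840.3, 31.9 and 199 CPM against 7734 to 15784, 155 to 226 and 365 to 602 CPM in the other NMF libraries. The part of these cell types in the members' values was not tested. Among pCAF libraries, replicate 1 had the highest Kcnj8 and Cspg4 and the lowest Myh11, Abcc9 and Mcam.

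The 5 tested genes whose log2 CPM over the 7 libraries was most like that of Des, the member with the highest mean level, were Rpp25, Pus3, Vash2, Pde3b and Filip1l, with Pearson's r of 0.967 to 0.979. For Rgs5, added after the values were seen, they were Tspan15, Casz1, Tie1, Tbkbp1 and Pde9a, with r of 0.9965 to 0.998. The points share library and group, so that genes with the same group difference score high. These values are a description.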

How the data were processed

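Messenger RNA was measured in 3 pCAF and 4 NMF libraries. The authors deposited raw counts per gene symbol. The tools named in the submitters' processing notes, with no roles, are HTSeq, STAR 2.4.2a and bcl2fastq, and the build is mm10; the annotation, the strand setting and any molecular identifiers are not given in the sources used here. Unstranded counting could mix overlapping genes.

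Samples were grouped by title. Counts were filtered with filterByExpr, scaled with TMM factors and compared with edgeR 4.0.16 (robust quasi-likelihood F test, two-sided, Benjamini-Hochberg over 10535 genes, threshold 0.05) in R 4.3.3. CPM used the scaled library sizes; standard errors were derived from the F statistic, and intervals for log2 fold changes from its degrees of freedom. Where a group held 1 to 3 counts, pooled levels were divided and given an exact 95% counting interval; where it held 0, a floor of 3 counts over the group was used. Intervals cover counting error only. Total counts, from 1885039 to 4990070, limit the precision of low genes. The main edgeR fit alone was tried on simulated counts. The other tests, scalings, filters and intervals were not.

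The members and lists were chosen with earlier results of these data known. Named genes are the members, the 4 tested genes of each list with the highest mean CPM, and fixed genes and relatives. They also include the 5 genes most like the most abundant member, and not all are printed. Named outside these rules were Foxs1, Heyl, Ndufa4l2, Trpc6, Ednrb, P2ry14, Tbx2, Art3, Gucy1b3 and Ebf1. So were Mustn1, Pcp4l1, Ppp1r14a, Sncg, Myocd, Pdgfb, Angpt1, Prox1 and the genes compared with Rgs5. From the contractile list, 1 gene, not chosen for its values, was taken out after the values were seen; it is not reported here and is left out of that list's counts, median and sums.

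Positions are from GENCODE M21; the last 300.0 bp of transcripts were compared with blastn 2.17.0 (matches of at least 80 bp at 95% identity) and the last 1000.0 bp checked for overlapping exons. Alternatives were other scalings, DESeq2 1.42.0, limma-voom (limma 3.58.1), other filters, thinned libraries, a block on the replicate number, and fewer libraries. After removal of group means, libraries with the same number correlated at -0.0932, 0.0794 and -0.0132, so numbers were not used to pair samples. Figures used Python 3.11.15 and matplotlib 3.10.9.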

Additional observations from a re-analysis of the deposited data

Results flagged for a closer look

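These 2 results in NMF were marked because 1 of the 4 libraries lay far from the others: its gap to the nearest library, divided by the range of the group, was above Dixon's 95% critical value of 0.829. For Myh11 this ratio was 0.892, with NMF replicate 4 at 97.5 CPM and the other NMF libraries at 14.7 to 23.6 CPM. For the summed level of the mural recruitment genes it was 0.832, with NMF replicate 3 at 2010 CPM and the other NMF libraries at 2221 to 2263 CPM. In all, 23 groups were examined in this way, and chance alone marks about 1 in 20.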

How the results depend on the processing

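Rgs5, Gja4 and Des kept direction and call under all 17 alternatives, and Higd1b under the 16 that tested it (with a mean of at least 10 CPM it was not tested). Mcam lost its call with limma-voom alone (log2 fold change -2.91, adjusted p = 0.0723). Cspg4 passed with DESeq2's test (1.40), the replicate block (1.95) and without both libraries that stood apart in earlier results, pCAF replicate 1 and NMF replicate 4 (1.49); leaving out single libraries gave 0.89 to 2.00. Abcc9 passed with library totals (-1.12), DESeq2's test (-0.91) and without both libraries (-0.74). The sign of Kcnj8, which never passed (adjusted p 0.549 to 0.987), turned with library totals (-0.16) and without both libraries (-0.12), and ran from -0.20 to 0.26 when single libraries were left out. The log2 fold change of Anpep, which passed in 2 alternatives, ran from -1.65 to 0.19 when single libraries were left out and was -1.75 without both libraries. Myh11 passed in none (0.0572 to 0.440). The cause of these shifts was not tested.

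Members higher in pCAF numbered 2 with DESeq2's test, the replicate block and without both libraries, and 1 to 2 when single libraries were left out. Genes of the contractile list that were lower in pCAF numbered 2 with the replicate block. Other mural genes lower in pCAF numbered 5 to 11 when single libraries were left out. Over all genes, 1503 were higher and 1491 lower of 10535 tested in the main fit. With DESeq2's test 1780 were higher and 1884 lower of 10535, and with the replicate block 978 and 1023 of 10535. Without both libraries 2802 were higher and 2913 lower of 10838. When single libraries were left out, 1016 to 2021 were higher and 979 to 2187 lower, of 10201 to 11048 tested. The calls of Cspg4 and Abcc9 without both libraries thus came where many more genes passed. With library totals 37.1% of called genes were higher in place of 50.2%, and the median over all tested genes moved to -0.26 on the log2 scale. The numbers are not stated to mark shared animals, and NMF replicate 4 has no partner in the block. Depth limits Rgs5, Higd1b, Gja4 and Mcam in pCAF, where 0 to 6 counts were found per library.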
